A study of Mus musculus with 6 samples.

Results

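Oxidative phosphorylation (OXPHOS) is carried out by 4 respiratory complexes and the ATP synthase in the inner mitochondrial membrane. The subunits of these complexes that nuclear genes encode were examined here on micro-arrays of mouse renal cortex. Members were the genes whose name on the array belongs to the nuclear subunit families Nduf, Sdh, Uqcr, Cox and Atp5, or is Cyc1 or Cycs, and they were grouped by complex. They came to 85 genes with 132 probes, out of 24813 genes and 56605 probes on the array. Complex I (NADH dehydrogenase) held 37 genes, complex II (succinate dehydrogenase) 4, complex III (cytochrome bc1 complex) 9, complex IV (cytochrome c oxidase) 17 and complex V (ATP synthase) 17, and Cycs encodes the mobile carrier cytochrome c. The rule itself is one of gene names.

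Male mice aged 16 weeks gave the renal cortex, and each group had 3 one-colour Agilent arrays. By label the groups are db/m and db/db. The paper and the design text instead describe db/db mice given HuangQi decoction (HQD) against non-treated db/db mice. A treatment of 8 weeks is stated, the dose for these arrays is not named, and db/db mice lack a working leptin receptor (Lepr db on C57BLKS/J), which makes them obese and diabetic. The names labelled db/m and labelled db/db are used for this reason, genotype and decoction cannot be told apart here, and a negative difference means a lower level in labelled db/m. Levels are log2 intensities relative to the 75th percentile of the array. Testing required a signal well above background throughout at least 1 group of 3 arrays, and the brightest tested probe stood for its gene. All 12 proximal tubule markers examined were tested, with the phosphate transporter Slc34a1 between 7.43 and 8.31 on the 6 arrays, so the cells of the cortex that carry most mitochondria were present. In whole tissue, fewer cells of a type and less RNA per cell cannot be told apart.

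Complex I and complex II pass electrons from NADH and succinate to ubiquinone, complex III passes them on to cytochrome c, and complex IV hands them to oxygen. Complexes I, III and IV pump protons, and complex V uses the gradient to make ATP. The proximal tubule depends on this pathway for the energy of reabsorption. The mitochondrial genome encodes further subunits, and 0 of those 13 genes matched a probe by name, so that they were not analysed here. Cox5b was not among the matched probes either.

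The nuclear genes of the pathway are known for promoters that bind NRF1 and ETS factors such as GABPA. Of the 85 members, 70 had a promoter in the RefSeq table (build GRCm38.p6). In the 250 bases before the start, searched on both strands, GCGCANGCG (NRF1) was found for 15 of them (21.4%, against 5.86% of 27025 genes) and CCGGAAG (ETS) for 12 (17.1%, against 7.83%). For AAGGTCA (ERR) the count was 5 (7.14%, against 4.70%) and for AAGATGGC (YY1) it was 2 (2.86%, against 1.83%). Matches to NRF1 or ETS together were present for 23 members (32.9%) and for 12.7% of all genes. The 120 bases before the start are shown for 4 members described below, with the matches to NRF1 or ETS in capitals. They were picked to show the spacing of the matches and include Sdhd and Cox6a1, which hold both kinds.
Sdha promoter, chr13:74350241-74350360, minus strand: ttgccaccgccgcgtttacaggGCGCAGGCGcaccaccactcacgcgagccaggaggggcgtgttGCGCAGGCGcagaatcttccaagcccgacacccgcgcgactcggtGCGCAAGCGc
Sdhd promoter, chr9:50603850-50603969, minus strand: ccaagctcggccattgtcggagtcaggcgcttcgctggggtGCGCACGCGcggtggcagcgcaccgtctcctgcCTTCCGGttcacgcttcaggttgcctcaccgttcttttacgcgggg
Cycs promoter, chr6:50566570-50566689, minus strand: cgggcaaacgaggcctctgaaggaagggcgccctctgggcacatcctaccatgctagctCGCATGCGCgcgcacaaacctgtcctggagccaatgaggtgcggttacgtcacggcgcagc
Cox6a1 promoter, chr5:115348959-115349078, minus strand: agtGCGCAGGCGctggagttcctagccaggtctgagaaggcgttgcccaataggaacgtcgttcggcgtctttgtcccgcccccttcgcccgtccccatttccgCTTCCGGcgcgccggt
In Sdha the matches to NRF1 begin 98, 55 and 10 bases before the start, and in Cycs the match begins 61 bases before it. A match says only that these letters are present.

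Of the 85 genes, 81 were tested. The single probes of Ndufa12 and Uqcrq were left out for outlier flags, and Cox8b and Cox8c were too dim. With the arrays scaled to their 75th percentile, 74 of the 81 genes were lower and 7 were higher in labelled db/m, with a median difference of -0.14 on the log2 scale (a ratio of 0.906), but with quantile normalization 38 were lower and 43 higher, with a median of 0.01. The matrix of log2 values that the authors deposited gave the same split of 38 and 43. Median centring moved the median difference of all tested probes by -0.19, and that of the members was -0.33 under it. No common direction of the pathway was therefore held by all scalings. Of all 15540 tested genes, 56.5% were lower under the 75th percentile, and of the 3885 brightest, to which 76 of the 81 members belong, 78.8% were lower with a median of -0.14, close to that of the members. With quantile normalization 49.5% of all tested genes were lower.

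At an unadjusted limma p under 0.05, 5 of the 81 members were lower (6.17%) and 0 were higher, whereas 9.76% of all tested genes were lower and 5.45% were higher at that threshold. With the brightest probe of each gene the share of members was thus below the background, and below the 13.7% of the 3885 brightest genes, of which 1.78% were higher. All labelled db/m arrays lay under all labelled db/db arrays for 19 members (23.5%), against 16.3% of all tested genes and 25.1% of the 3885 brightest. The reverse held for 0 members, against 6.59% and 3.19%. With quantile normalization all labelled db/m arrays were below for 10 members (12.8% of all genes) and above for 7 (8.85%). After Benjamini-Hochberg adjustment over all 29889 tested probes 0 members passed (0% of all genes also), and the lowest adjusted p of any member probe was 0.24. With quantile normalization 0 members had an unadjusted p under 0.05, where 8.04% of all genes were lower and 5.26% higher. Counted by probe, 102 of 122 tested member probes were lower (53.5% of all tested probes), 18 of them (14.8%) with an unadjusted p under 0.05, above the 10.8% of all tested probes, and 1 was higher with such a p (6.9% of all). With the mean over the tested probes of each gene, 11 of 81 members were lower with such a p. No share of all genes is given for that fit, so this count cannot be set against a background. All labelled db/m arrays were below for 38 of the 122 member probes (31.1%), against 16.4% of all tested probes. They were above for 2 member probes, against 7.75% of all tested probes. The 5 genes under the threshold with the brightest probe were Ndufa10, Ndufv1, Ndufa6, Sdhc and Uqcrc2. The count was 0 when replicate 1 or 3 of labelled db/m or replicate 2 of labelled db/db was left out, and 18 when replicate 2 of labelled db/m was left out. No shares of all genes are given for these fits.

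**Figure D1:**
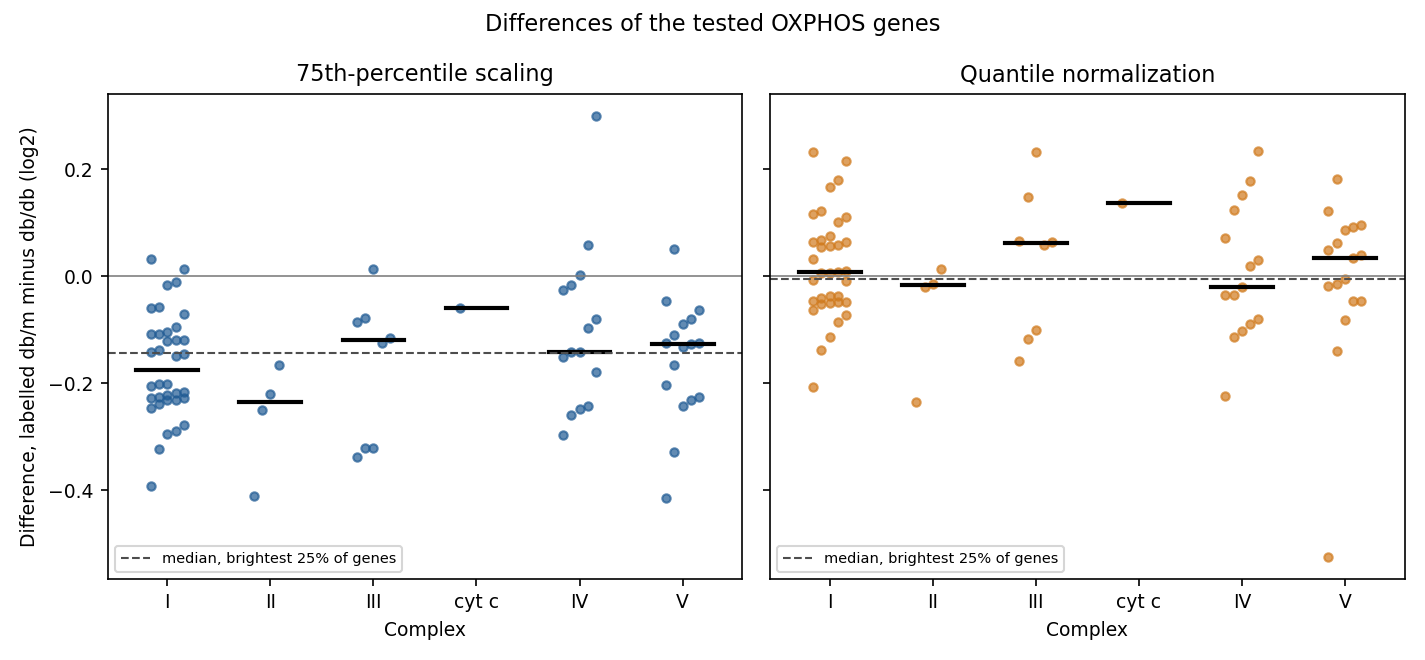
Each point is 1 tested gene, by complex (x axis), with its difference of labelled db/m minus labelled db/db in log2 units (y axis), under 75th-percentile scaling (left) and quantile normalization (right). Bars are medians of the complexes and the dashed line is the median of the 3885 brightest genes, at -0.14 on the left and -0.01 on the right, where the median of all members is -0.14 and 0.01.

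The spread between arrays of a group was close in size to the difference between the groups. Under the 75th percentile the median deviation of the 81 genes from their own means was -0.20, 0.11 and -0.12 on labelled db/m arrays 1, 2 and 3, and -0.01, 0.16 and 0.08 on labelled db/db arrays 1, 2 and 3. Labelled db/m array 2 thus lay among the labelled db/db arrays, while arrays 1 and 3 were below them all, with a spread of 0.127 (SD within groups). In each of the 5 complexes labelled db/m arrays 1 and 3 were the lowest, array 3 being the lower in complex II, and the range over arrays was narrowest in complex IV (-0.20 to 0.09) and widest in complex II (-0.24 to 0.22). With quantile normalization the deviations of the 81 genes shrank to between -0.08 and 0.05, and the lowest array was then labelled db/db 1. Slide 1 held labelled db/m array 1 and labelled db/db array 3, slide 2 the other labelled db/m arrays and slide 3 the other labelled db/db arrays. The pair within slide 1, which is also the fit with slide as a block, gave a median of -0.27 over the members.

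Under the 75th percentile the proximal tubule markers moved with the same arrays. Their 12 genes had mean levels of 6.63, 7.36 and 6.95 on labelled db/m arrays 1 to 3 and of 7.20, 7.40 and 7.28 on labelled db/db arrays 1 to 3. All 12 were lower in labelled db/m, with a median difference of -0.29 (-0.15 with quantile normalization, 10 of 12 lower), and 1 had an unadjusted p under 0.05. With quantile normalization the proximal tubule markers stayed lowest on labelled db/m array 1, with a median deviation of -0.27. The members were at -0.01 there and were lowest on labelled db/db array 1, at -0.08. Under the 75th percentile the podocyte and distal convoluted tubule markers were also lowest on labelled db/m array 1, at -0.59 and -0.46. The part of tubule content in the OXPHOS differences was not tested. The 6 immune cell markers ran the other way, with mean levels of 0.70, 0.45 and 0.69 on the labelled db/m arrays and 0.16, 0.13 and 0.39 on the labelled db/db arrays. All 6 were higher, with a median difference of 0.44 (0.37 with quantile normalization), and 3 of 6 had an unadjusted p under 0.05, among them Ptprc, the pan-leukocyte antigen CD45 (0.55, SE 0.16, limma adjusted p = 0.24). Their part in the OXPHOS differences was likewise not tested. Medians of the other marker lists ran from -0.35 (3 red blood cell genes) to 0.37 (2 adipose genes), with thick limb, distal convoluted tubule, collecting duct, podocyte, endothelium and striated muscle markers between them and 0 to 1 genes of each under that threshold.

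**Figure D2:**
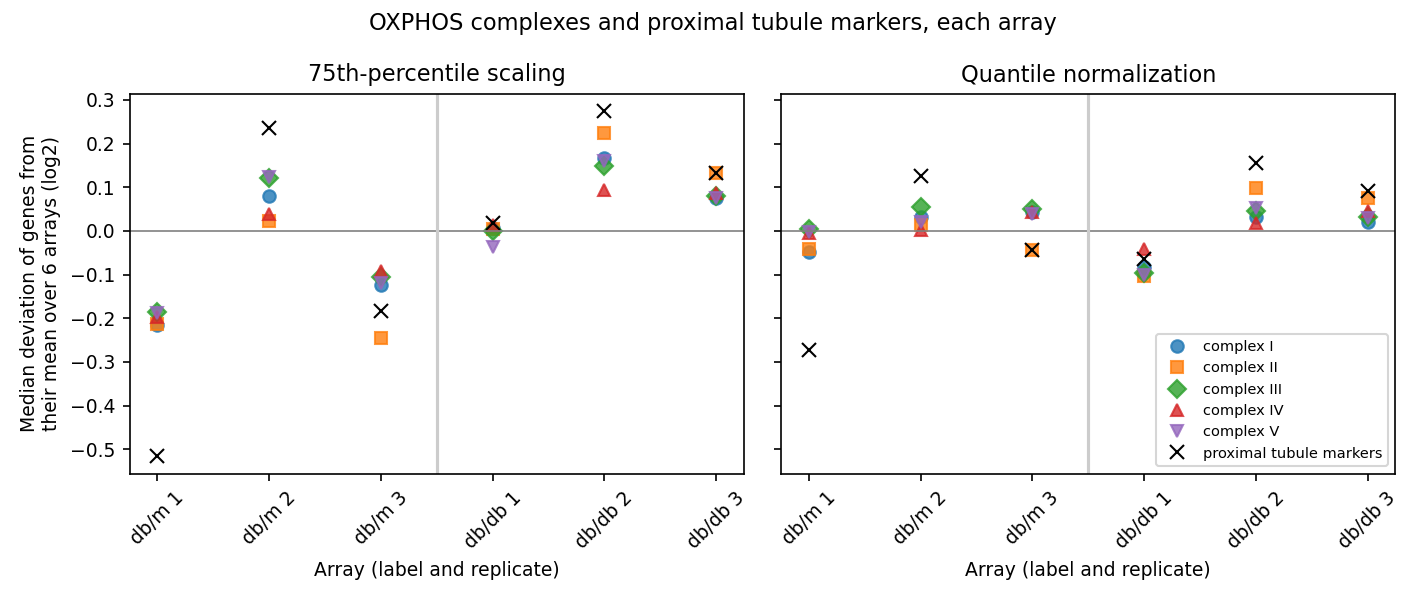
Points give the median deviation of the genes of each complex from their own mean over the 6 arrays (y axis, log2), for each array (x axis), and crosses give the proximal tubule markers. Under 75th-percentile scaling (left) labelled db/m arrays 1 and 3 are low and array 2 is not, and quantile normalization (right) brings the complexes to between -0.10 and 0.10.

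Complex I held 36 tested genes, of which 34 were lower and 2 higher under the 75th percentile (median -0.18) and 16 lower and 20 higher with quantile normalization (median 0.01). The 7 nuclear core subunits, which carry out the electron transfer, were all lower with a median of -0.23, and the 29 accessory subunits had a median of -0.14. The lowest value of the complex was that of Ndufa10, an accessory subunit of the matrix face next to the membrane arm. Its level was 5.41, 5.66 and 5.38 on the labelled db/m arrays and 5.84, 5.98 and 5.82 on the labelled db/db arrays. The groups did not overlap, and the difference was -0.39 (SE 0.12, limma adjusted p = 0.24). With quantile normalization it was -0.21, and the unadjusted p was then above 0.05. A second probe of the gene gave -0.36, and -0.22 with quantile normalization, both with an unadjusted p under 0.05. The third, dim probe was on the other side of 0, at -1.39, -1.76 and -1.58 against -1.66, -2.05 and -1.99. The mean over the 3 probes gave -0.14 with an unadjusted p above 0.05.

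Ndufv1, the flavoprotein that takes electrons from NADH, stood at 7.01, 7.30 and 7.05 in labelled db/m and at 7.39, 7.47 and 7.47 in labelled db/db. The groups did not overlap either, and the difference was -0.32 (SE 0.12, limma adjusted p = 0.259), or -0.14 with quantile normalization. Ndufa6, an accessory subunit, stood at 6.58, 6.89 and 6.64 against 7.00, 7.05 and 6.93, a difference of -0.29 (SE 0.12, limma adjusted p = 0.281). With quantile normalization the difference of Ndufa6 was -0.11. Ndufs3, a core subunit of the peripheral arm, was the steadiest of the 4 within labelled db/m, at 6.54, 6.53 and 6.56 against 6.71, 6.83 and 6.78. Its difference of -0.23 (SE 0.10) missed the unadjusted threshold. With quantile normalization it was the least steady of the 4 there, at 16.55, 16.33 and 16.57 against 16.43, 16.51 and 16.53. Its groups then overlapped, and the difference was -0.01. Ndufs1, the largest core subunit, overlapped between groups at 5.90, 6.19 and 5.89 against 6.02, 6.47 and 6.21, with a difference of -0.24 (SE 0.16). The members of the complex that were not lower were Ndufa4, now regarded as a subunit of complex IV (0.03, SE 0.13), and Ndufb4 (0.01, SE 0.13), whose probe lists a second gene.

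Complex II, the only complex without a subunit from the mitochondrial genome and also an enzyme of the tricarboxylic acid (TCA) cycle, had all 4 genes lower under the 75th percentile (median -0.24), and 3 of 4 with quantile normalization (median -0.02). Sdhc, 1 of its membrane anchors, stood at 5.13, 5.43 and 5.09 on the labelled db/m arrays and at 5.58, 5.76 and 5.55 on the labelled db/db arrays. The groups did not overlap, and the difference was -0.41 (SE 0.14, limma adjusted p = 0.244), or -0.24 with quantile normalization, where the unadjusted p was above 0.05. The partner anchor Sdhd, at 6.27, 6.28 and 6.05 against 6.28, 6.55 and 6.52, differed by -0.25 (SE 0.13), with the highest labelled db/m array and the lowest labelled db/db array at the same level. The catalytic flavoprotein Sdha and the iron-sulphur subunit Sdhb differed by -0.22 (SE 0.12) and -0.17 (SE 0.14) at their brightest probes, and their groups overlapped. With quantile normalization Sdha turned to 0.01 and Sdhb was at -0.01. A further Sdha probe gave -0.36, and -0.24 with quantile normalization, both with an unadjusted p under 0.05. Its 2 dim probes were above 0 under the 75th percentile (0.11 and 0.04).

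In complex III, 7 of 8 tested genes were lower under the 75th percentile (median -0.12) and 3 of 8 with quantile normalization (median 0.06). Uqcrc2, a core protein of the matrix face, stood at 6.45, 6.64 and 6.35 against 6.74, 6.92 and 6.79 without overlap. Its difference was -0.34 (SE 0.12, limma adjusted p = 0.251), or -0.12 with quantile normalization. Its partner Uqcrc1 differed by -0.32 (SE 0.16) and the small subunit Uqcr10 by -0.32 (SE 0.14), both with overlap between the groups. With quantile normalization Uqcrc1 was at -0.10 and Uqcr10 at -0.16. Of the subunits that carry the electrons, the Rieske protein Uqcrfs1 differed by -0.08 (SE 0.14) and by 0.15 with quantile normalization. Cytochrome c1, Cyc1, differed by -0.11 (SE 0.12) at its brightest probe and by 0.06 with quantile normalization, and its other probe gave -0.41. Cycs, the electron carrier between complexes III and IV, differed by -0.06 (SE 0.15) and by 0.14 with quantile normalization.

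Complex V had 16 of 17 tested genes lower under the 75th percentile (median -0.13) and 8 of 17 with quantile normalization (median 0.03), and 0 had an unadjusted p under 0.05. The 5 genes of the catalytic F1 head were all lower under the 75th percentile, with a median of -0.13. Among them Atp5d stood at 5.75, 6.17 and 5.81 against 6.23, 6.35 and 6.14, where array 2 of labelled db/m lay above array 3 of labelled db/db (difference -0.33, SE 0.14). The catalytic beta subunit Atp5b and the alpha subunit Atp5a1 differed by -0.13 (SE 0.12) and -0.12 (SE 0.13). The 3 genes for the identical c subunit of the rotor ring differed by -0.20 (SE 0.14) for Atp5g1, -0.23 (SE 0.11) for Atp5g2 and -0.09 (SE 0.13) for Atp5g3, which turned to 0.09 with quantile normalization. Atp5g2 had groups that did not overlap (7.09, 7.22 and 7.08 against 7.40, 7.41 and 7.26), but with quantile normalization they overlapped and its difference was -0.05. Peripheral stalk members Atp5f1, now named Atp5pb, and Atp5o differed by -0.23 (SE 0.12) and -0.24 (SE 0.14). Atp5s and Atp5sl, which the name rule takes in, are now named Dmac2l and Dmac2 and are not counted among the subunits. Atp5s had the lowest value of all members, -0.41 (SE 0.24). Its groups did not overlap, but labelled db/db array 3 stood apart at -0.94, while the other arrays lay between -2.06 and -1.78.

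Complex IV had 12 of 15 tested genes lower under the 75th percentile (median -0.14) and 8 of 15 with quantile normalization (median -0.02), and 0 had an unadjusted p under 0.05. It is the complex with most tissue isoforms, and these differed in how steady they were. Cox4i1, the general form of subunit 4, stood at 7.78, 7.97 and 7.80 against 8.17, 8.13 and 8.04 without overlap (difference -0.26, SE 0.11, limma adjusted p = 0.283). With quantile normalization its difference was -0.09 and the groups overlapped. Cox4i2, the form known from lung and for its response to low oxygen, stood between -0.32 and 0.30 with both ends of the range in labelled db/db (difference -0.03, SE 0.17). Cox6b1 had groups that did not overlap (4.31, 4.50 and 4.36 against 4.56, 4.76 and 4.60) with a difference of -0.25 (SE 0.11), whereas the testis form Cox6b2 overlapped (-0.14, SE 0.14). Cox5a and Cox7a2 differed by -0.18 (SE 0.12) and -0.15 (SE 0.12), Cox6a1 by -0.10 (SE 0.13) and Cox8a by -0.08 (SE 0.12). With quantile normalization Cox7a2 and Cox8a turned to 0.03 and 0.02, whereas Cox5a and Cox6a1 were at -0.04 and -0.02. Cox7a1, the heart and muscle form of subunit 7a, overlapped between the groups with a difference of 0.06 (SE 0.12), which median centring turned to -0.13. Cox7a2l, a factor of supercomplex assembly that the name rule takes in, differed by -0.14 (SE 0.10) and by 0.07 with quantile normalization.

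The heart and muscle form Cox6a2 had the largest SE of all tested members, and its groups overlapped. Its level was -0.98, 1.57 and 0.85 on labelled db/m arrays 1, 2 and 3 and -0.16, 0.94 and 1.39 on labelled db/db arrays 1, 2 and 3. The difference of -0.24 had an SE of 0.69. The proximal tubule phosphate transporter Slc34a3 was low on the same arrays, at 2.57, 4.38 and 3.83 in labelled db/m and at 3.07, 4.37 and 4.32 in labelled db/db. Striated muscle markers were partly detected. Of the 5 examined, Acta1 and Tnnt3 were well above background on all 6 arrays and Ckm and Myh1 on none. The 3 tested were higher in labelled db/m (median difference 0.18), with median deviations of -0.43, 0.46 and 0.61 on the labelled db/m arrays and -0.25, -0.50 and 0.15 on the labelled db/db arrays. Labelled db/m array 1 was thus low and array 2 high as for Cox6a2, labelled db/db array 2 was not, and the part of muscle RNA in the Cox6a2 levels was not tested. The muscle form Cox8b was well above background on labelled db/db array 1 alone, at -1.85, while the other 5 arrays lay between -6.28 and -5.77. Of the 5 adipose markers, Ucp1 and Adipoq were well above background on no array, and the 2 tested were higher in labelled db/m. Among them Fabp4 stood at 3.54, 2.56 and 3.29 against 2.56, 2.54 and 2.40 (difference 0.63, SE 0.25). The median deviation of the 2 tested was lowest on labelled db/db array 1, at -0.31. The part of adipose RNA in the Cox8b level was not tested. The testis form Cox8c was well above background on no array, and the testis form Cox7b2 was so on 5 of 6 arrays (-2.66, -2.22 and -2.63 against -1.97, -3.91 and -2.52).

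**Figure D3:**
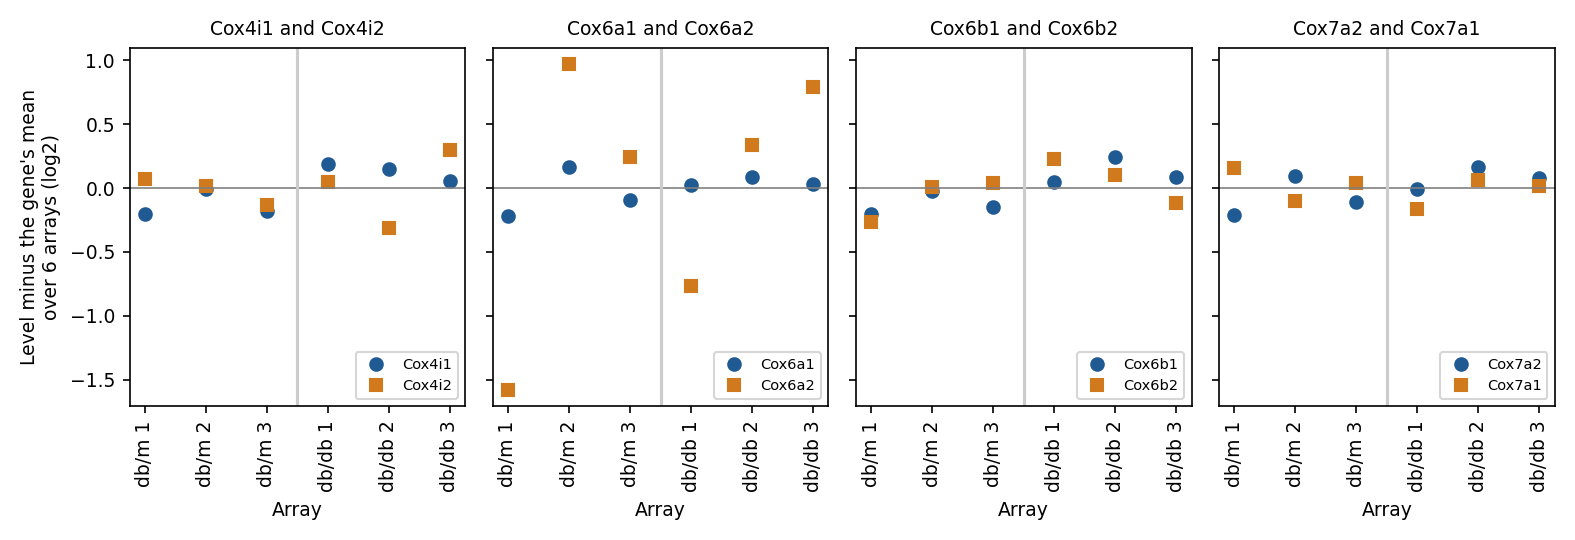
Each panel sets a general subunit form (blue circles) beside a tissue form (orange squares) of complex IV, as the level of the gene minus its own mean over 6 arrays (y axis, log2), for each array (x axis, 75th-percentile scaling). Cox6a2 moves over more than 2 log2 units within labelled db/m, while the general forms stay within 0.25 of their means.

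Several members had probes at more than 1 place of the transcript, and these did not give the same difference. For 18 genes at least 2 tested probes matched by RefSeq accession could be ordered on 1 strand in mm9, the build of the array files. No minimum distance was set. The 2 probes lay between 25 bases (Ndufa5) and 13853 bases (Ndufa10) apart in the genome, with a median of 924. Those of Ndufa5 and of Uqcrb (37 bases apart) overlap each other, and those of Atp5o and Atp5h lay 70 and 123 bases apart. The probe nearest the 5′ end was lower in labelled db/m for 17 of the 18 (median -0.29), and 9 of 18 had an unadjusted p under 0.05. The probe nearest the 3′ end was lower for 14 (median -0.18), and 2 of 18 had such a p. With quantile normalization the counts were 4 and 0. Of all 4823 genes with such a pair, 19.6% had a lower 5′ probe at that threshold and 9.45% a lower 3′ probe (22.1% and 6.45% with quantile normalization).

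The difference was more negative at the 5′ probe than at the 3′ probe in 13 of the 18 members (72.2%) and in 62.2% of all 4823 genes, with a median gap of -0.11 in members and -0.06 in all genes. Under quantile normalization these were 14 of 18 with -0.11, and 73.6% with -0.15. The gap of 5′ less 3′ level, centred for each gene, had a median over all genes of -0.01, -0.03 and -0.07 on the labelled db/m arrays and of 0.07, 0.02 and 0.01 on the labelled db/db arrays, so that these medians did not overlap between the groups. The gap could not be told apart from slide: the medians over all genes were lowest on slide 2, which held labelled db/m only, and highest on slide 3, which held labelled db/db only. For the 18 members the gap was 0.03, -0.08 and -0.07 on the labelled db/m arrays and 0.09, 0.06 and 0.03 on the labelled db/db arrays, and on slide 1, the only slide with both groups, it was 0.03 on both arrays. The amplification kit named in the labels primes from the poly(A) tail, and signal far from that tail depends on RNA integrity. The part of RNA integrity in the OXPHOS differences was not tested.

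**Figure D4:**
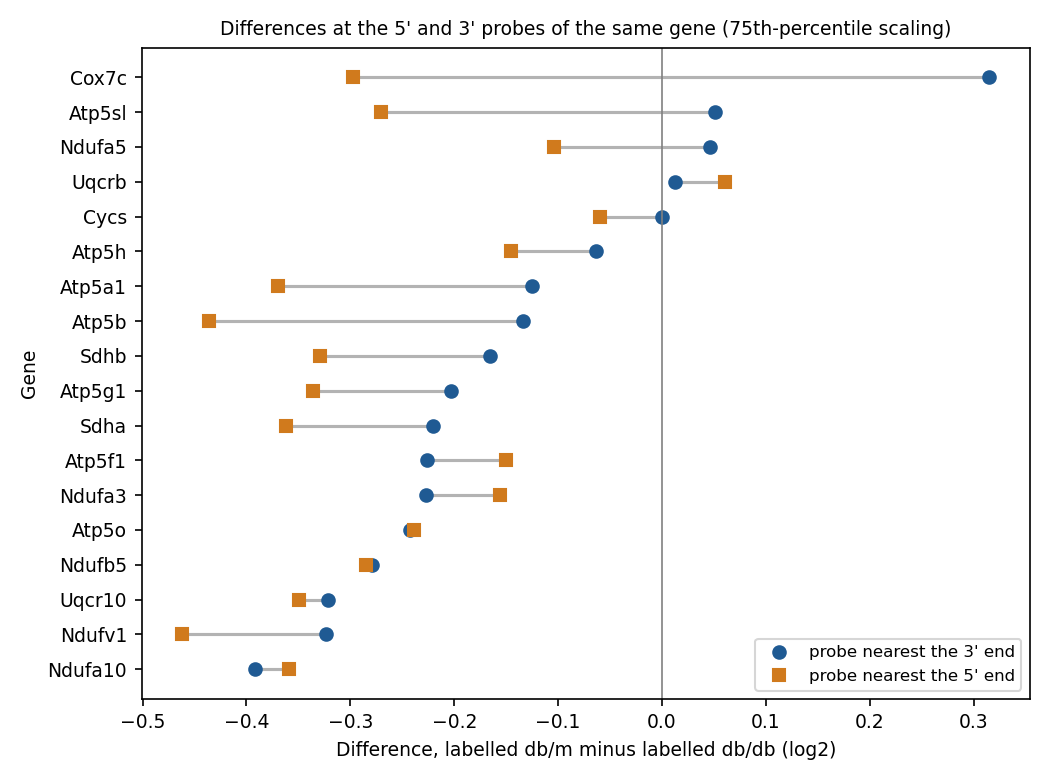
For 18 members with ordered probes (y axis), the difference of labelled db/m minus labelled db/db (x axis, log2, 75th-percentile scaling) is shown at the probe nearest the 3′ end (circles) and nearest the 5′ end (squares). In 13 of the 18 the square lies to the left of the circle, with the widest gaps in Cox7c and Atp5sl.

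The probes of Atp5b, Ndufv1 and Sdhb were picked among the 13 of 18 members with a more negative 5′ probe. Atp5f1, Ndufa3, Uqcrb, Ndufa10 and Atp5o went the other way, with gaps of 0.08, 0.07, 0.05, 0.03 and 0.004. Cyc1 is not among the ordered genes, as a probe of it has no coordinates, and both its probes are shown. For each probe 30 of the 60 bases are given so that the places can be told apart. Capitals mark the polyadenylation hexamer, which lies close to the 3′ end of a transcript. Coordinates are those of the whole probe in mm9, and a span over 60 bases crosses an intron.
Atp5b 5′ probe, chr10:127521478-127522156, plus strand: aatgccattggagaacttattgatgagaga
Atp5b middle probe, chr10:127526024-127526083, plus strand: tctccaggacatcattgccatcttgggtat
Atp5b 3′ probe, chr10:127527255-127527314, plus strand: acaagagccttgattgaagatgtgatgttc
Ndufv1 5′ probe, chr19:4008693-4008752, minus strand: ccaccatttgccgtcgtgggggcacctggt
Ndufv1 3′ probe, chr19:4007508-4007567, minus strand: gggaaactggacAATAAAcaagtgctgtcc
Sdhb 5′ probe, chr4:140522514-140527081, plus strand: aatgcagacgtacgaggtggatctgaataa
Sdhb 3′ probe, chr4:140535052-140535108, plus strand: tacagcatatgtAATAAAcatttaagataa
Cyc1 probe matched by accession, chr15:76175938-76175997, plus strand: ggatgtcgccaccttccttcgctgggcatc
Cyc1 probe named by the array file, without coordinates: cctcagtgtgggAATAAAttaagtttctca
In Atp5b the difference was -0.44, -0.28 and -0.13 at the 5′, middle and 3′ probes. The 5′ probe, at 3.42, 3.31 and 3.16 against 3.64, 3.74 and 3.82, did not overlap between groups (SE 0.12, limma adjusted p = 0.24), and the 3′ probe, at 8.30, 8.61 and 8.34 against 8.48, 8.55 and 8.63, did. With quantile normalization the difference at the 5′ probe was -0.32, again with an unadjusted p under 0.05.

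Ndufv1 gave -0.46 at its 5′ probe and -0.32 at its 3′ probe, and Sdhb gave -0.33 and -0.17. For Cyc1 the probe with the hexamer, which is the brighter, gave -0.11 and the other gave -0.41, with an unadjusted p under 0.05. Whichever probe stands for cytochrome c1 therefore decides whether it is among the genes under that threshold. Adjusted limma p-values of these probes were 0.24 or more.

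Probes that the array file names as members but that matched no RefSeq accession behaved differently from the rest. Of 101 tested member probes matched by accession 91 were lower in labelled db/m (median -0.17), and of the other 21 probes 11 were lower (median -0.07). Over all tested probes of the array the medians were -0.07 and 0.12. Of 31 members with several tested probes, 18 had all probes on the same side, below 0, and 13 had probes on both sides. In 4 of these, Atp5g1, Ndufa10, Ndufb2 and Sdha, at least 1 probe had an unadjusted p under 0.05. In Ndufb2, a small accessory subunit of complex I, the probe on chr6:39552854-39552913 was higher in labelled db/m without overlap, at -2.52, -3.01 and -2.94 against -3.47, -3.27 and -3.36. Its difference was 0.54 (SE 0.16, limma adjusted p = 0.24), whereas the probes of the same gene on chr6:39548336-39549425 and chr6:39548271-39548330 gave -0.07 and -0.22. The 2 places are shown by 30 bases each.
Ndufb2 brightest probe, chr6:39548336-39549425, plus strand: ctgacactgtaaactctctggacgagagca
Ndufb2 probe that was higher, chr6:39552854-39552913, plus strand: ggacaaaagtctgttactatagaaaggctg
The probes of Cox7c, which list a second gene and are uncertain for that reason, gave -0.30 (SE 0.14) and 0.32 (SE 0.29).

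Genes that build or control the complexes were compared with the subunits. Among 15 complex I assembly factors 13 were lower under the 75th percentile (median -0.19) and 11 with quantile normalization (median -0.10), and 4 of 15 (26.7%) had an unadjusted p under 0.05, all lower, where 9.76% of all tested genes were lower at that threshold (8.04% with quantile normalization). These were the same 4 genes under both scalings. Tmem126b, a factor for the membrane arm, stood at 0.56, 0.67 and 0.54 against 0.98, 1.29 and 1.02 without overlap, with a difference of -0.50 (SE 0.12, limma adjusted p = 0.24) and of -0.46 with quantile normalization. Nubpl, which delivers iron-sulphur clusters to complex I, differed by -0.41 (SE 0.11), Foxred1 by -0.37 (SE 0.11) and Tmem186 by -0.34 (SE 0.12). Of the factors of complex II, 1 of 4 had such a p (Sdhaf1, -0.37, SE 0.13), of complex III 0 of 6, of complex IV 2 of 20 (Coa7, -0.46, SE 0.11, and Coa5, -0.52, SE 0.15) and of complex V 0 of 3, counts to be read against the same shares of all genes. Coa7, Coa5 and Sdhaf1 were under that threshold with both scalings.

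The 15 regulators of the pathway, such as the coactivator Ppargc1a, had 7 genes lower and 8 higher (median 0.01, or 0.11 with quantile normalization), and Tfam, which packages and transcribes the mitochondrial genome, was the only 1 with an unadjusted p under 0.05 (-0.31, SE 0.12). The 13 TCA cycle genes were all lower under the 75th percentile (median -0.17) and 6 of 13 with quantile normalization (median 0.00), and 1 of 13 had such a p (Idh3g, -0.37, SE 0.14). Of 14 genes of mitochondrial content 13 were lower under the 75th percentile (median -0.19) and 7 with quantile normalization (median -0.01). Among them Phb2, a scaffold of the inner membrane, differed by -0.36 (SE 0.12) and the ATP/ADP carrier Slc25a5 by -0.29 (SE 0.11). With quantile normalization 0 genes of the regulators, the TCA cycle or mitochondrial content had an unadjusted p under 0.05, so that Tfam, Idh3g, Phb2 and Slc25a5 all lost it. Of 8 uncoupling and antioxidant genes 5 were lower (median -0.11, or 0.04 with quantile normalization) and 0 had such a p. TCA cycle and mitochondrial content genes thus had medians close to those of the subunits under both scalings, and the medians of complex I and complex II assembly factors stayed at or below -0.10 under both.

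**Figure D5:**
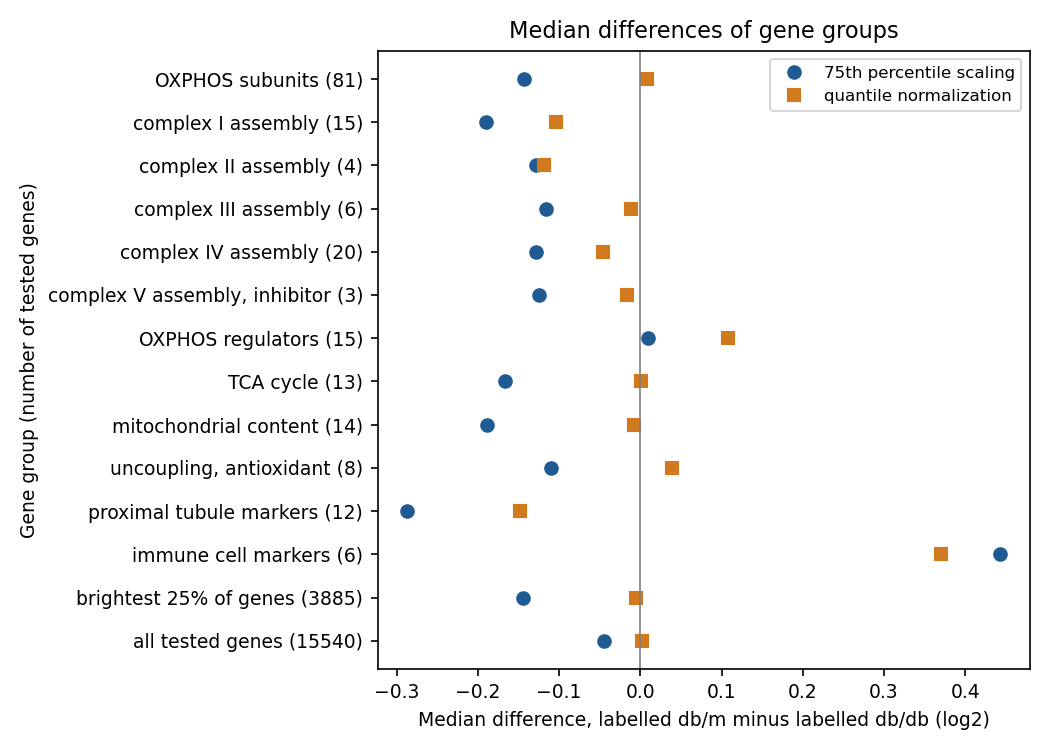
Median difference of labelled db/m minus labelled db/db (x axis, log2) for gene groups (y axis, number of tested genes in brackets) under 75th-percentile scaling (circles) and quantile normalization (squares). OXPHOS subunits, TCA cycle and mitochondrial content move to near 0 with quantile normalization together with the 3885 brightest genes.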

How the data were processed

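RNA of 6 renal cortex samples was measured on one-colour Agilent arrays, 3 per group as labelled, with no statement in the sources that mice were pooled. The authors deposited the spot intensity from Agilent Feature Extraction 10.7.1.1, background-subtracted and not scaled between arrays, and a matrix of log2 values. From the deposited intensity, control spots and spots with outlier flags were dropped (135 probes in all), spots of a probe were averaged, and log2 values were set relative to the array's own 75th percentile. 0 spots were saturated. Groups were compared with lmFit and eBayes (limma 3.58.1, R 4.3.3) over 29889 probes with Benjamini-Hochberg adjustment, and the procedure was tested on simulated data. An exact permutation test of 3 against 3 could not go below 0.1. P-values measure the spread between these arrays. Coordinates are mm9 from the array files, promoters RefSeq GRCm38.p6. Probe strand matched RefSeq for 99.7% of 16507 probes.

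Members and lists were chosen with earlier results of these data known. Named were the 4 genes with the smallest p per complex, catalytic or core subunits, tissue isoforms, and members whose probes differ in sign with an unadjusted p under 0.05. A gene that the rule covers is not reported here and stays in the counts and medians. Other members are named where a count or a value is singled out. In other lists at most the 3 smallest p were named, besides Tmem186. Alternatives covered normalization, background correction, filters, probe choice, slide, replicate block, tests and each array left out.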

Additional observations from a re-analysis of the deposited data

How the results depend on the processing

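The count of 5 members that were lower with an unadjusted limma p under 0.05 became 0 with quantile normalization and with the authors' matrix, and 22 with median centring. Under median centring 2837 of all 15540 tested genes and 1053 of the 3885 brightest were lower at that threshold. The count was 2 without a filter on dim probes, 11 with the mean over all tested probes of a gene, 11 with the methods' t-test and 14 with trend and robust variance. It was 12 with the 5′ probe for the 18 genes with ordered probes and the brightest probe for the others. That setting was chosen after seeing the data. With slide as a fixed block it was 2, Atp5s and Cox6a2, and 0 of the 5 were kept. Shares of all genes are not given for the filter, probe, slide and test settings, so their counts cannot be set against a background. Median differences of all members and of complexes I to V were 0.0081, 0.0073, -0.0176, 0.061, -0.0212 and 0.0345 with quantile normalization, 0.0078, 0.0054, -0.0238, 0.0715, -0.0327 and 0.0325 with the authors' matrix, and -0.33, -0.36, -0.42, -0.31, -0.33 and -0.31 with median centring. With slide as a fixed block complexes III, IV and V gave -0.33, -0.25 and -0.27. Members whose groups did not overlap numbered 19, and 37 with median centring, where labelled db/m was below in all 37. Under median centring all labelled db/m arrays also lay below for 4585 of all 15540 tested genes and 1780 of the 3885 brightest.

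Leaving out each array in turn gave 0 to 18 such members with a p under 0.05 and medians over all members from -0.24 to -0.07. By complex the medians ranged from -0.25 to -0.11 (I), -0.30 to -0.17 (II), -0.22 to -0.04 (III), -0.184 to -0.0464 (IV) and -0.22 to -0.07 (V). Members without overlap ranged from 19 to 62, the highest count coming when replicate 2 of labelled db/m was left out. They numbered 30 when replicate 1 of labelled db/db was left out. In each of these fits 0 members passed the adjusted threshold and 0 were higher with a p under 0.05. Shares of all genes are not given for these fits, so the counts of members cannot be set against a background.

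With a replicate block 11 members had a p under 0.05, again without a share of all genes beside it. The correlations of deviations between arrays of the same number were 0.35, 0.15 and 0.05, so that the numbers were not taken to pair the arrays. Among named genes 44 values passed the threshold that the reported value did not, 38 no longer passed, and 0 called genes changed sign. The number of arrays limits precision, with a median SE of 0.13 over the members.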
